A study of Saccharomyces cerevisiae with 6 samples.

Results

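The late ergosterol synthesis genes of budding yeast were followed across growth temperatures in total RNA. The 10 genes were chosen by identifier, as ERG1, ERG7, ERG11, ERG24, ERG25, ERG6, ERG2, ERG3, ERG5, and ERG4, among the 6461 genes of the raw count table, by a rule that used no measured value. RNA was read by 3′-Tag-seq (QuantSeq), which samples mRNAs beside the poly(A) tail, with 2 biological replicates for each temperature (6 libraries). All cells were of the BY4741/2 background, carried CBP80-PPX-PrA (protein A on the large cap-binding subunit) and SNAPf-YRA1 (a SNAP tag on the mRNA export adaptor Yra1), and grew in rich YPD medium. Cultures of the first groups were kept at 25°C or at 30°C, and the third was grown at 25°C and then held at 37°C for 2 h. That last culture also received as much warm fresh medium as its own volume when it was shifted, so heat and fresh medium cannot be told apart. The comparisons address whether the mRNA pool changed with the temperatures at which mRNP composition was measured.

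Ergosterol is the main sterol of fungal membranes, where cholesterol stands in animals. The late pathway begins with squalene and runs through lanosterol, and its demethylation, desaturation, and reduction steps use oxygen, heme, iron, and NADPH. Ergosterol sets membrane fluidity, and the azole and allylamine antifungals act on Erg11 and Erg1. Transcription of many pathway genes is driven by Upc2 and Ecm22, sterol-sensing activators that bind a short sterol element upstream of their targets.

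The 10 genes lie on 5 chromosomes in R64, the build to which the authors mapped, and 5 of them are on the minus strand. Each gene was a single coding interval between 669 bases (ERG2) and 2196 bases (ERG7), and 0 of the 10 overlapped another annotated gene. The gap to the next gene downstream ran from 166 bases (ERG24) to 651 bases (ERG11), and 6 of the 10 downstream neighbors lay on the opposite strand. Whether counting used strand is not stated in the sources used here, and reads of a neighbor that runs toward a member are not separated with certainty.

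To show what the members share beyond their enzymology, the 500 bases before each start codon were searched on both strands for TCGTATA, a core of the sterol element. This core was present upstream of 5 of 10 members (ERG1, ERG25, ERG6, ERG2, and ERG3) and of 420 of 6002 nuclear coding genes (6.998%). A second form, TCGTTTA, chosen after the first search was seen, was present upstream of 7 of 10 members and of 8.80% of all genes. At least 1 form was found for 9 of 10 members and for 14.8% of all genes. In related lists, at least 1 form was found for 7 of the 10 mevalonate pathway genes and 6 of 7 helper genes of the late pathway. The same bases cannot match both forms, though matches on opposite strands can overlap. ERG11 held neither form in this window. A gapped form of the element of Hap1, a heme-sensing activator, was found upstream of 0 of the 10 and 21 of the 6002 (0.350%). At so low a share, 0 of 10 does not show that the members lack Hap1 sites. A match describes letters and not a bound site.

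**Figure D1:**
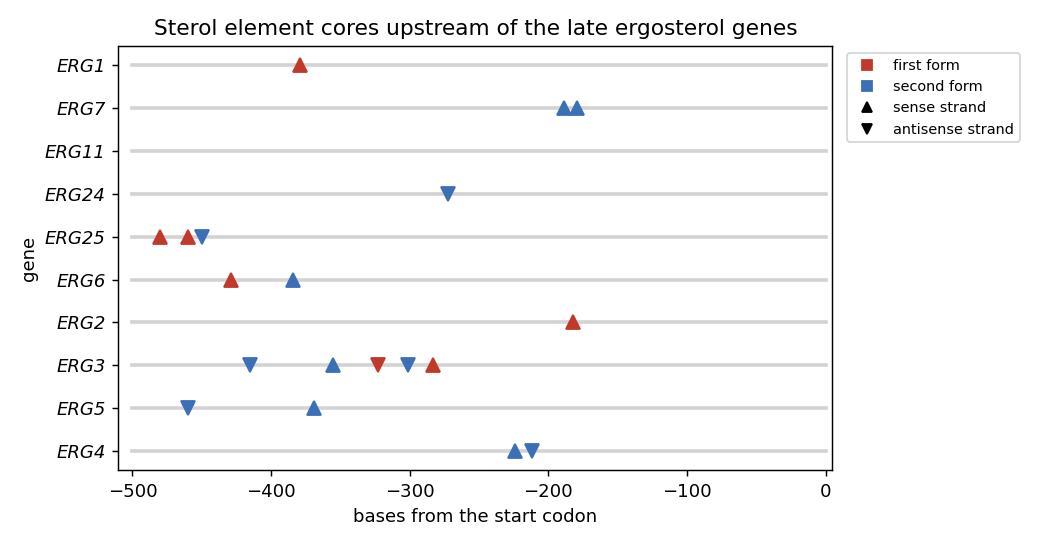
Matches to the sterol element cores in the 500 bases before each start codon, with the x axis in bases from the start codon and 1 line per gene. Red marks TCGTATA, blue marks TCGTTTA, and the triangle points up for the sense strand. ERG3 has 5 matches, ERG25 has 3, and ERG11 has 0.

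For each gene with a match, 1 stretch of 60 bases is printed, starting shortly before a match and holding as many matches as any stretch placed so. They are printed because they show how the element recurs, alone or in repeats, in genes for different enzymes. All are R64 sequence on the strand of the gene, and capitals mark either core (TATACGA and TAAACGA are the same cores read from the other strand). They lie at chrVII:848761-848820 (minus, ERG1), chrVIII:238891-238950 (plus, ERG7), chrXIV:110642-110701 (minus, ERG24), chrVII:610066-610125 (plus, ERG25), and chrXIII:253378-253437 (minus, ERG6). The others lie at chrXIII:667337-667396 (plus, ERG2), chrXII:253488-253547 (plus, ERG3), chrXIII:302904-302963 (minus, ERG5), and chrVII:472613-472672 (plus, ERG4).
ERG1: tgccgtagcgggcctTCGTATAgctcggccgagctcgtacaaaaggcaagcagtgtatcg
ERG7: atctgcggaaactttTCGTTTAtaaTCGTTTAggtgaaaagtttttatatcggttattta
ERG24: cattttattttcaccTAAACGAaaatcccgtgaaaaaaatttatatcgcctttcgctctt
ERG25: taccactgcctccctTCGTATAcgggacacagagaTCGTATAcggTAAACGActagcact
ERG6: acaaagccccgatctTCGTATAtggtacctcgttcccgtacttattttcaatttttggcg
ERG2: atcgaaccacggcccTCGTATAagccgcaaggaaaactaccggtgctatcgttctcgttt
ERG3: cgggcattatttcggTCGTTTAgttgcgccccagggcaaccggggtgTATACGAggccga
ERG5: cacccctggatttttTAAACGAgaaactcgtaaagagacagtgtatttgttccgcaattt
ERG4: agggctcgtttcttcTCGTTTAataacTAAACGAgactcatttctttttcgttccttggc
In these stretches the core recurred in the same direction in ERG7, in both directions in ERG3, ERG25, and ERG4, and stood alone in ERG1, ERG24, ERG6, ERG2, and ERG5.

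Annotated genes received 184456 to 1006632 counts per library, with the lowest total in the first 25°C replicate. That library stood apart: its log2 CPM (counts scaled to a common library size with TMM factors) correlated with those of the other 5 at r = 0.716 to 0.862 over 5181 genes, where all other pairs reached 0.904 to 0.974. There, 3 counts equal 17.6 CPM, against 2.80 to 4.23 CPM in each of the others, so results that rest on it are given with and without it. Of marker genes deleted in strains of this background, URA3 and MET17 had 0 counts in every library, and LEU2 and LYS2 had at most 2. STE2, the receptor of mating type a cells, had 22 to 273 counts. Its mean CPM was 169 at 25°C, 270 at 30°C, and 68.5 at 37°C. Of the other genes of mating type a, BAR1 had 21 to 264 counts, MFA2 12 to 759, and MFA1 2 to 86. Among genes of the other mating type, SAG1 had 12 to 43 counts, STE3 0 to 5, and MF(ALPHA)1 0 to 1. The ranges of MFA1 and SAG1 thus overlapped.

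As a group, the 10 genes took a similar part of each library. They held 0.271% and 0.289% of gene counts in the 25°C replicates (exact binomial 95% intervals 0.248% to 0.296% and 0.278% to 0.301%), 0.284% and 0.271% at 30°C, and 0.258% and 0.268% at 37°C. Means were 0.280% ± 0.0128, 0.278% ± 0.00928, and 0.263% ± 0.00704 (SD, n = 2 each), and no test was run on them. The intervals, which cover counting error only, overlapped for every pair of libraries except that replicate 1 of 37°C lay below replicate 2 of 25°C and replicate 1 of 30°C. Ribosomal protein genes held 9.62% to 22.2% of gene counts and moved between replicates. With those genes left out of the total, the members' share ran from 0.292% to 0.365% in single libraries, with means of 0.325%, 0.339%, and 0.298% in order of temperature, so 30°C and not 25°C was then the highest.

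The makeup of that share differed more than its size. ERG11, which encodes the P450 enzyme that demethylates lanosterol, gave 56.0% of the members' counts in the first 25°C replicate and 33.2% to 45.6% in the other libraries. ERG25, for the oxidase that starts removal of the C-4 methyl groups, gave 26.2% in the first 25°C replicate and 15.2% to 18.5% elsewhere. ERG3, for the desaturase that acts near the end of the pathway, gave 1.60% in that library and 10.7% to 17.5% elsewhere.

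**Figure D2:**
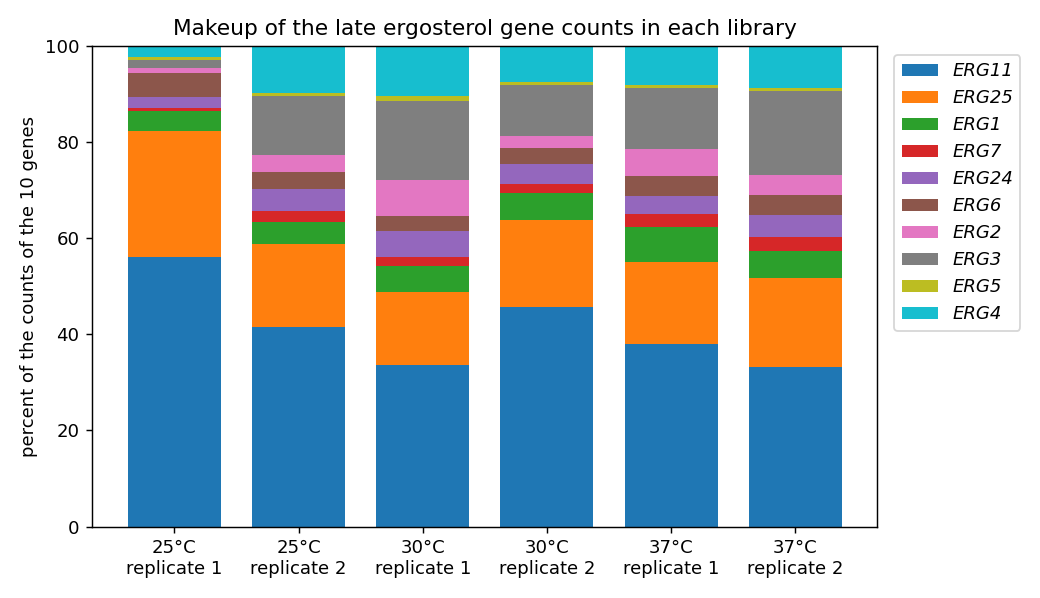
Stacked bars give the percent of the 10 genes' counts that each gene took in each library, with replicates side by side on the x axis. ERG11 and ERG25 together take 82.2% in the first 25°C replicate and 48.8% to 63.8% in the other 5.

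The pathway opens with the epoxidation of squalene by Erg1 and its cyclization to lanosterol by Erg7. ERG1 (YGR175C, chrVII:846933-848423, minus strand) stood at 123 and 137 CPM in the 25°C libraries (replicates 1 and 2), 172 and 148 in those of 30°C, and 168 and 136 in those of 37°C. Its 37°C values overlapped those of both other temperatures, and its highest library was 1.40-fold above its lowest, the narrowest span of the 10. ERG7 (YHR072W, chrVIII:239098-241293, plus strand) had 17.6 CPM in the first 25°C replicate, from 3 counts (exact Poisson 95% interval 3.63 to 51.4 CPM), and 72.0 in the second. It had 63.0 and 48.0 CPM at 30°C and 63.7 and 67.3 at 37°C, so its low value stood in 1 library.

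**Figure D3:**
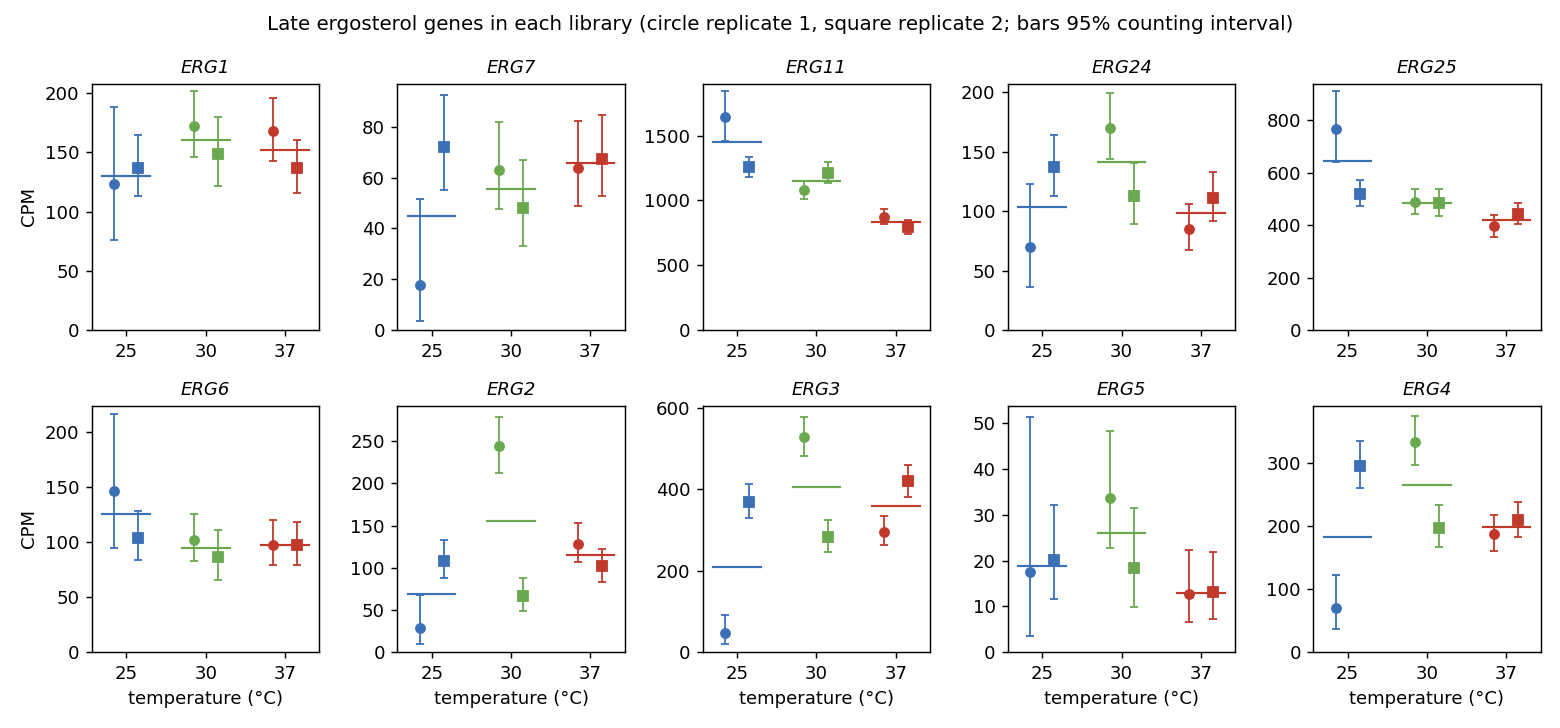
CPM of each gene (y axis, from 0) against temperature, with circles for replicate 1, squares for replicate 2, a horizontal line at the mean of the 2 libraries, and bars for the 95% counting interval. ERG11 is lower at each higher temperature without overlap, whereas ERG2, ERG3, and ERG4 spread between replicates of 25°C and 30°C.

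The steps that strip lanosterol of methyl groups follow, with Erg11 and the oxidase Erg25. Between them acts the reductase Erg24, which removes no methyl group itself. ERG11 (YHR007C, chrVIII:120091-121683, minus strand) stood at 1641 and 1256 CPM in the 25°C libraries, 1082 and 1213 in those of 30°C, and 875 and 796 in those of 37°C, with 280 to 1064 counts per library. The 3 temperatures did not overlap in ERG11, with the highest level at 25°C and the lowest at 37°C. ERG25 (YGR060W, chrVII:610564-611493, plus strand) stood at 768 and 519 CPM in the 25°C libraries, 488 and 483 in those of 30°C, and 395 and 442 in those of 37°C, in the same order and also without overlap. ERG24 (YNL280C, chrXIV:109095-110411, minus strand) stood at 70.3 and 137 CPM in the 25°C libraries, 170 and 113 in those of 30°C, and 85.0 and 111 in those of 37°C, where both 37°C libraries stood below both 30°C libraries and within the range of 25°C. ERG11 and ERG25 were thus the 2 of 10 members whose libraries were ordered from 25°C down to 37°C without overlap, as were 2.99% of all genes tested. The counting intervals of ERG11 in the second replicates of 25°C (1181 to 1333 CPM) and 30°C (1133 to 1296 CPM) overlapped. For ERG25, the interval of the second 25°C replicate (472 to 570 CPM) overlapped those of both 30°C libraries (443 to 536 and 433 to 537). That of the second 37°C replicate (403 to 484 CPM) overlapped all of these ERG25 intervals.

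The last steps add a methyl group (Erg6), move and add double bonds (Erg2, Erg3, and the P450 Erg5), and reduce the side chain (Erg4). ERG6 (YML008C, chrXIII:251839-252990, minus strand) stood at 147 and 104 CPM in the 25°C libraries, 102 and 86.1 in those of 30°C, and 97.7 and 97.2 in those of 37°C. Its 37°C libraries stood below both 25°C libraries and inside the range of 30°C. The counting intervals of the first 37°C replicate (78.8 to 120 CPM) and the second 25°C replicate (83.3 to 128 CPM) overlapped. ERG5 (YMR015C, chrXIII:300869-302485, minus strand) was near the limit of the depth, with 3 to 30 counts, and stood at 17.6 and 20.1 CPM in the 25°C libraries, 33.7 and 18.4 in those of 30°C, and 12.7 and 13.1 in those of 37°C. Both 37°C values of ERG5 were below all others, and their counting intervals (6.59 to 22.3 and 7.16 to 21.96 CPM) overlapped those of every other library except the first 30°C replicate (22.8 to 48.2 CPM).

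The other late genes varied widely between replicates. ERG2 (YMR202W, chrXIII:667537-668205, plus strand) stood at 29.3 and 109 CPM in the 25°C libraries, 244 and 66.3 in those of 30°C, and 129 and 102 in those of 37°C, so the 30°C libraries lay on either side of both 37°C libraries. ERG3 (YLR056W, chrXII:253861-254958, plus strand) stood at 46.9 and 369 CPM in the 25°C libraries, 527 and 284 in those of 30°C, and 296 and 420 in those of 37°C, an 11.2-fold span that rests on 8 counts in the first 25°C replicate (interval 20.2 to 92.4 CPM). ERG4 (YGL012W, chrVII:472855-474276, plus strand) stood at 70.3 and 296 CPM in the 25°C libraries, 334 and 198 in those of 30°C, and 188 and 209 in those of 37°C. In all 3 genes the first replicate was the lower at 25°C and the higher at 30°C.

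Replicates were therefore compared directly. In the first 25°C replicate, ERG3, ERG4, ERG7, and ERG2 had a log2 ratio of −2.91, −2.03, −1.89, and −1.80 to the second, and ERG25, ERG6, and ERG11 at 0.56, 0.49, and 0.39. The interquartile range of all 5181 genes ran from −0.99 to 0.54, and 34.4% of them differed over 2-fold between these libraries, against 4 of the 10 members. At 30°C, 9 of 10 members were higher in the first replicate (median log2 ratio 0.48, all genes −0.02), with ERG2 at 1.84. Ribosomal protein genes moved the same way, with medians of −1.60 at 25°C and 1.10 at 30°C, and whether this bears on the members was not tested. At 37°C the members ran from −0.50 to 0.33, and 0 of 10 differed over 2-fold, against 1.80% of all genes.

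**Figure D4:**
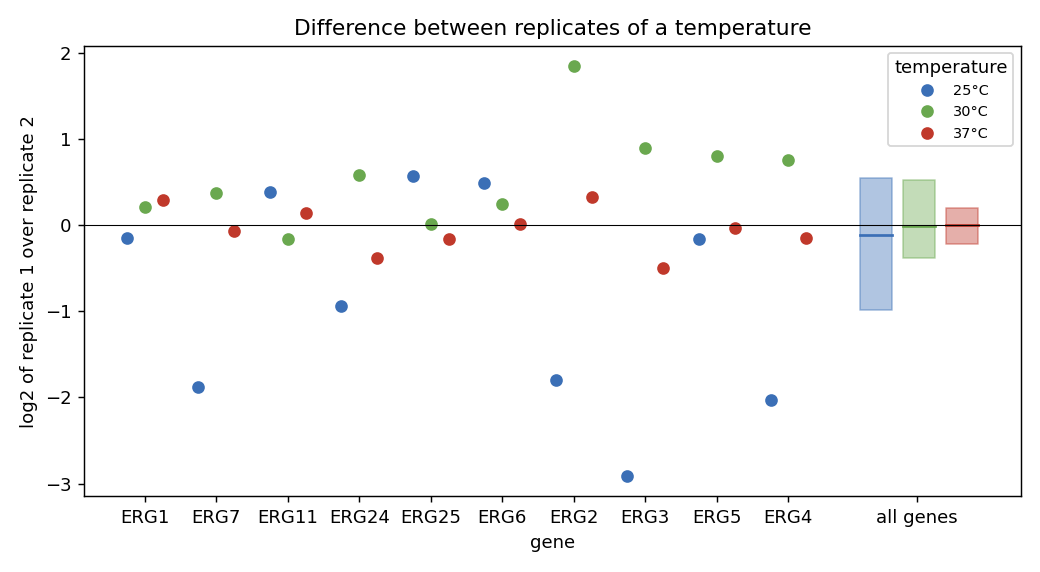
Log2 ratio of replicate 1 to replicate 2 (y axis) for each gene, colored by temperature, with boxes at the right for the interquartile range and median of all genes tested. The 25°C points reach −2.91 (ERG3), whereas those of 37°C stay between −0.50 and 0.33.

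Temperatures were then compared with edgeR's quasi-likelihood test on all 6 libraries, with Benjamini-Hochberg adjustment over the 5181 genes tested. All 10 members passed the filter on low counts. Calls required both an adjusted p under 0.05 and a change of over 1 on the log2 scale (log2FC), in either direction. Between 37°C and 25°C, 0 of 10 members were called, where 0% of all genes were called, and 0 of 10 had an unadjusted p below 0.05, against 13.5% of all genes. DESeq2, the tool of the study, also called 0 of the 4 members to which its filter left an adjusted p, against 4.58% of such genes. Members had a median log2FC of −0.06 (all genes 0.09), with 5 positive and 5 negative (6 and 4 with libraries scaled by their totals), and this median became −0.25 when the first 25°C replicate was left out or 0.36 when the other was.

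Both 37°C libraries stood below both 25°C libraries for 4 of 10 members (ERG11, ERG25, ERG6, and ERG5), against 23.2% of all genes, and above them for 0 of 10, against 29.4%. ERG11 had 835 ± 56.3 CPM (SD, n = 2) for 37°C and 1448 ± 273 for 25°C, with a log2FC of −0.79 (SE 0.36, 95% interval −1.65 to 0.06, edgeR adjusted p = 0.388). DESeq2 gave ERG11 a log2FC of −0.84 with an unadjusted p of 0.0320 and an adjusted p of 0.184. Without the first 25°C replicate, the log2FC of ERG11 was −0.62. ERG25 had a log2FC of −0.61 (SE 0.34, interval −1.42 to 0.20, edgeR adjusted p = 0.474), or −0.34 without that replicate.

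ERG3, ERG2, and ERG7 lay on the other side of 0, with log2FC of 0.70, 0.56, and 0.31, and their intervals were wide (−1.10 to 2.49 for ERG3). Without the first 25°C replicate these became −0.08, 0.05, and −0.17, and ERG4 moved from 0.03 to −0.61. With the second 25°C replicate left out instead, ERG3 had a log2FC of 2.89 and was called (edgeR adjusted p = 0.0495, as were 6.67% of all genes in that fit), from a 25°C level of 8 counts in 1 library. The signs of ERG3, ERG7, and ERG4 thus differed with the 25°C library used, as did that of ERG24 (−0.51 without the first replicate and 0.44 without the second), and ERG2 stayed positive. ERG1 was the only member whose 95% interval lay within 2-fold (−0.48 to 0.91).

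**Figure D5:**
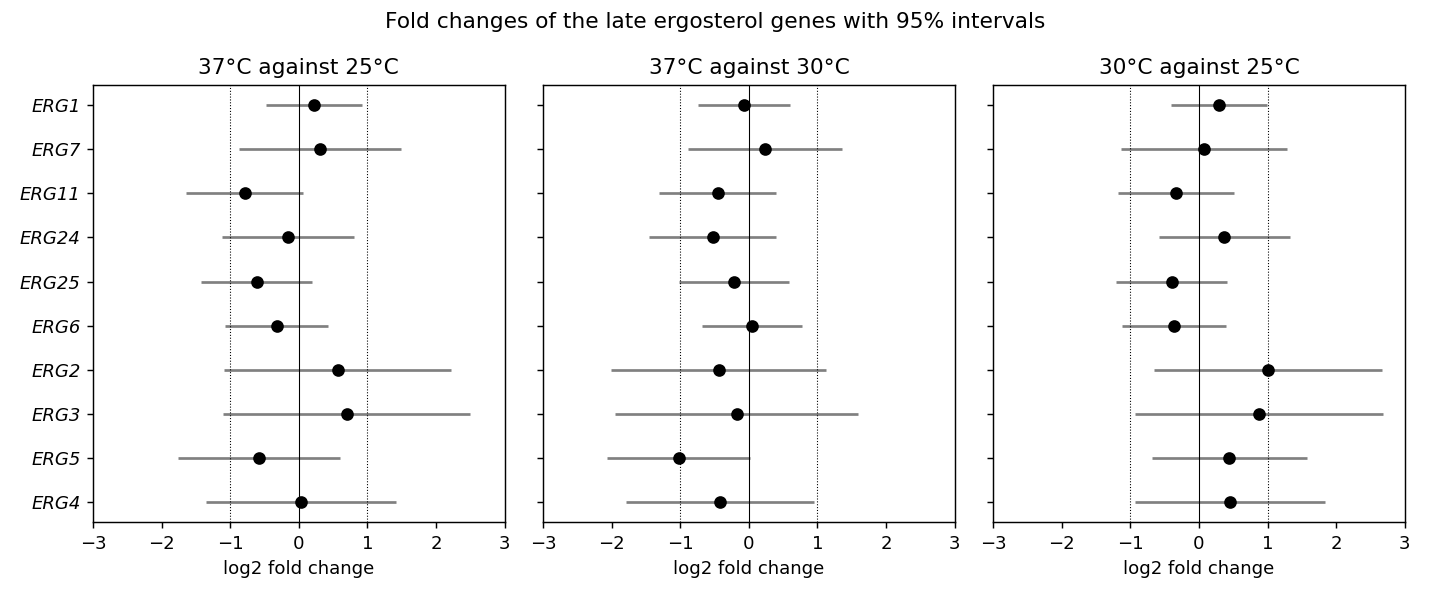
Log2FC (points, x axis) and 95% intervals (lines) of each gene for the 3 comparisons, with dotted lines at −1 and 1. All 30 intervals include 0, and those of ERG2, ERG3, and ERG4 are the widest in the first panel.

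Between 37°C and 30°C, which leaves out the 25°C levels, 8 of 10 members were negative and the median log2FC was −0.32 (all genes −0.01). The 25°C libraries still entered the estimate of spread behind each SE, interval, and p. Without the first 25°C replicate, 8 of 10 were negative (median −0.36). However, 5 of 10 were negative without the first 30°C replicate and 5 with library totals as the scale. edgeR called 0 of 10 (0% of all genes), 0 of 10 had an unadjusted p below 0.05 (7.06% of all genes), and DESeq2 called 0 of 10 (0.282% of its genes). Both 37°C libraries were below both 30°C libraries for 4 of 10 members (ERG11, ERG24, ERG25, and ERG5), against 20.2% of all genes, and above them for ERG7 alone, against 24.2%. For ERG24 the counting intervals of the second replicates overlapped (92.2 to 133 CPM at 37°C and 89.5 to 141 at 30°C). ERG5 had a log2FC of −1.02 (SE 0.44, interval −2.07 to 0.01, edgeR adjusted p = 0.714), or −0.53 without the first 30°C replicate. ERG11 had −0.46 (SE 0.36, interval −1.31 to 0.39) and ERG24 −0.53 (SE 0.40), the latter −0.23 without the first 30°C replicate. Leaving out the first 30°C replicate gave a member median of −0.01, leaving out the second gave −0.47, and the median was −0.06 when libraries were scaled by their totals, which raised the median of all genes by 0.24 in both comparisons with 37°C. ERG1 and ERG6 had intervals within 2-fold (−0.75 to 0.60 and −0.68 to 0.77).

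Between 30°C and 25°C, 7 of 10 members were positive and the median log2FC was 0.33 (all genes 0.08), but −0.01 with the first 25°C replicate left out and −0.14 with the first 30°C replicate left out. edgeR called 0 of 10 (0% of all genes), 0 of 10 had an unadjusted p below 0.05 (1.41% of all genes), and DESeq2 called 0 (0% of its genes). ERG2 had the largest value, 1.00 (SE 0.70, interval −0.65 to 2.66, edgeR adjusted p = 0.889), and −0.26 without the first 30°C replicate. Both 30°C libraries stood below both 25°C libraries for ERG11, ERG25, and ERG6 (3 of 10, against 10.4% of all genes) and above them for ERG1 alone (13.1% of all genes). The log2FC of ERG11 was −0.33, and of ERG25 −0.40, or −0.12 and −0.0865 without the first 25°C replicate, and these comparisons share the 25°C and 30°C libraries with those above. In bulk RNA, less of an mRNA in each cell and fewer cells that make it cannot be told apart.

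The genes that supply squalene gave a similar count. Of the 10 mevalonate pathway genes, from the thiolase ERG10 to the squalene synthase ERG9, edgeR called 0 in each comparison. Between 37°C and 25°C, 8 of 10 were negative (median log2FC −0.36), or 5 of 10 under scaling by library totals. Without the first 25°C replicate, 9 of 10 were negative (median −0.43). Of all 5181 genes tested, 2311 were negative (median 0.09). The smallest p belonged to ERG20, farnesyl pyrophosphate synthase, and ERG13, HMG-CoA synthase. ERG20 had 433 CPM at 37°C and 754 at 25°C, a log2FC of −0.79 (edgeR adjusted p = 0.423), and ERG13 34.8 and 82.8 CPM, a log2FC of −1.06. Without the first 25°C replicate these were −0.31 and −0.32. Between 37°C and 30°C, 10 of 10 mevalonate genes were negative (median −0.36, range −0.43 to −0.10), against 8 without the first 30°C replicate and 7 under scaling by library totals. Without the first 25°C replicate, 10 of 10 stayed negative (median −0.40). Of all 5181 genes tested, 2657 were negative (median −0.01). Both 37°C libraries were below both 30°C libraries for 7 of the 10 mevalonate genes (20.2% of all genes) and above them for 0 (24.2%). In edgeR, 0 of the 10 had an unadjusted p below 0.05, against 7.06% of all genes.

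The list of 7 helper genes also holds ERG26 and ERG27, which are themselves genes for late enzymes. It stood on the other side at 37°C against 25°C. All 6 tested were positive (median log2FC 0.69), against 2870 of the 5181 genes tested (median 0.09). In the list 0 were called, and 4 of 6 were positive (median 0.28) without the first 25°C replicate. ERG26 had 0 counts in that replicate and 42 in the other 25°C library. DAP1, for a heme-binding protein that supports Erg11, had 108 CPM at 37°C and 47.1 at 25°C (log2FC 1.05, SE 0.39, edgeR adjusted p = 0.341), and ERG27, for the keto reductase that works beside Erg25, 151 and 84.8 CPM (log2FC 0.71). Without the first 25°C replicate these were 0.70 and 0.27. Between 37°C and 30°C, 4 of the 6 were positive, with a median of 0.10.

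Of 8 sterol regulator genes, 4 were positive and 4 negative at 37°C against 25°C, with 0 called. UPC2 and ECM22, named for the element above, had log2FC of 0.48 and 0.16 (SE 0.32 and 0.33). The smallest p belonged to ROX1, a repressor of oxygen-regulated genes, at 27.3 CPM at 37°C and 86.3 at 25°C (log2FC −1.52, SE 0.44, edgeR adjusted p = 0.271), and to SUT1, a factor of sterol uptake, at 2.53 and 10.6 CPM (log2FC −2.31, SE 0.87). ROX1 had −1.05 without the first 25°C replicate. SUT1 had 1 and 13 counts in the 25°C libraries and 3 and 2 in those of 37°C, so its fold change rests on few counts. Its log2FC was −2.59 without the first 25°C replicate.

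Storage, transfer, and heme genes gave no call either. ARE2, a sterol acyltransferase, had 40.6 CPM at 37°C and 10.6 at 25°C (log2FC 1.63, SE 0.46, edgeR adjusted p = 0.260, and 1.37 without the first 25°C replicate). It had 1 and 13 counts in the 25°C libraries and 36 and 46 in those of 37°C, so its fold change rests on few counts. The ester hydrolase gene YEH1 had a log2FC of 0.43, or 0.0899 without the first 25°C replicate. Among 13 sterol transfer genes (6 positive, 7 negative), LAM5 had a log2FC of 1.37 (SE 0.34, edgeR adjusted p = 0.230) and NPC2, for a vacuolar sterol carrier, −1.91 (SE 0.48, edgeR adjusted p = 0.238), or 1.15 and −1.53 without that library. Of 8 heme synthesis genes, 4 were positive and 4 negative, with HEM14 at 1.28 and HEM3 at −1.16, or 1.07 and −0.57 without it.

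Genes were also ranked by how near their centered log2 CPM profile came to the mean profile of the 10 members, as a root mean square distance over 6 libraries. The nearest were YDR292C (for a subunit of the signal recognition particle receptor), FCY1, MRPL51, SNR37, and EMC5, at 0.0429 to 0.0770, where the median gene stood at 0.545. Of the members themselves, ERG24 was nearest, at 0.145, and ERG3 farthest, at 0.829. ERG25 (0.568), ERG11 (0.580), and ERG2 (0.598) also stood farther from the mean profile than the median gene, so that profile describes these members poorly. Over the 5 libraries without the first 25°C replicate, the nearest were ARI1, SFA1, YDR292C, MRPS18, and ACL4 (0.0334 to 0.0528), the members ran from 0.135 (ERG4) to 0.441 (ERG2), and the median gene stood at 0.363.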

How the data were processed

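Reads of 6 QuantSeq libraries were mapped by the authors to R64 and counted per gene, and the deposited raw counts were used. Among tools, the submitters' processing notes name STAR 2.7.10a, UMI-tools 1.0.1, DESeq2 1.38.2, and HTSeq 2.0.2. Removal of duplicates, trimming, and the counting mode are described for other libraries of the study, and whether they apply to these libraries is not stated. A normalized copy of the table was not used. The 5 summary entries entered neither library sizes nor tests. Of all reads, 41.1% to 47.9% per library fell in no annotated gene, and 7.81% to 14.1% mapped to several places. The annotated intervals of the members end with the coding sequence, so reads wholly past a coding end are not in these values.

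Genes kept by filterByExpr (5181) were tested with edgeR 4.0.16 (TMM factors 0.883 to 1.12, temperature as the only factor, 6 libraries in 1 fit). The printed log2FC is drawn slightly toward 0 by the prior count, the SE is the unshrunken coefficient over the root of F, and the interval is centered on that coefficient. Log2 CPM used a prior count of 2. Scripts were tested on simulated data. Members, lists, and naming rules (all members, the 2 smallest p per list at 37°C against 25°C, and the 5 nearest profiles) were chosen with earlier results of these data known. Alternatives were DESeq2 1.42.0, other scalings, no filter, fits of the temperatures compared only, a replicate block, and each library left out. DESeq2 without the first 25°C replicate was chosen after seeing the data. Scripts ran in R 4.3.3 and Python 3.11.15, with scipy 1.17.1, pandas 2.3.3, matplotlib 3.10.9, and numpy 2.4.6.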

Additional observations from a re-analysis of the deposited data

How the results depend on the processing

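Members called stayed at 0 in each comparison under each alternative run, except 1 (ERG3) at 37°C against 25°C without the second 25°C replicate (range 0 to 1 with a library left out, where the lone library of a temperature is assumed to vary like the others). Calls over all genes at 37°C against 25°C were 0 in edgeR, 53 in DESeq2, 22 in DESeq2 without the first 25°C replicate (chosen after seeing the data), 7 with library totals, 4 with no filter, 1 in a fit of both temperatures only, and 0 to 355 with a library left out, 355 without the second 25°C replicate. At 37°C against 30°C they were 0, 15 in DESeq2, and 29 in DESeq2 without the first 25°C replicate. At 30°C against 25°C they stayed at 0 (73 genes at an unadjusted p below 0.05). The cause of these shifts was not tested. Without ribosomal protein genes in the total, the members' share was 0.325%, 0.339%, and 0.298% in order of temperature.

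Of 210 member log2FC values under alternatives that keep all libraries or use DESeq2, 10 changed sign, and none crossed the threshold. With library totals, ERG24 at 37°C against 25°C was 0.0829, and ERG1, ERG25, and ERG3 at 37°C against 30°C were 0.17, 0.0212, and 0.0842. With DESeq2 size factors, ERG4 at 37°C against 25°C was −0.00609. In DESeq2 without the first 25°C replicate, ERG7, ERG3, and ERG4 were −0.16, −0.0647, and −0.60 at 37°C against 25°C, and ERG7 and ERG4 −0.36 and −0.14 at 30°C against 25°C. With a library left out, 18 of 180 values changed sign. At 37°C against 25°C, ERG7 ran from −0.17 to 1.85, ERG24 from −0.51 to 0.44, ERG3 from −0.0763 to 2.89, and ERG4 from −0.61 to 1.46. At 37°C against 30°C, ERG1 ran from −0.23 to 0.0671, ERG6 from −0.0726 to 0.15, ERG2 from −1.09 to 0.76, and ERG3 from −0.56 to 0.31. At 30°C against 25°C, ERG7 ran from −0.36 to 1.66, ERG2 from −0.26 to 2.42, ERG5 from −0.0895 to 0.79, and ERG4 from −0.14 to 1.92.

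The labels do not say whether replicate numbers pair the libraries. Correlations of replicate differences across genes were −0.53 (25°C and 30°C), 0.28 (25°C and 37°C), and −0.40 (30°C and 37°C). They cannot settle it, since the first 25°C replicate, which stood apart, enters those with 25°C. With the replicate block, 0 members and 0 of all genes were called in each comparison, and the members' median log2FC at 37°C against 25°C was 0.02. With 2 libraries a group, the 95% interval at 37°C against 25°C lay within 2-fold for 1 of 10 members, and ERG5 had 3 to 30 counts per library.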
